A study of Drosophila melanogaster with 2 samples.

Results

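The vacuolar proton pump (V-ATPase) genes of Drosophila melanogaster were the 32 genes, of 15627 in the deposited table, whose symbol starts with Vha. They were taken by name and not by any measured value, and all 32 had reads in both libraries. The data were 1 library of chromatin immunoprecipitated with an antibody against dBigH1, the linker histone H1 variant of the early embryo and germ line, and 1 library of input DNA taken with no antibody. Both came from whole embryos of the w1118 stock collected 0 to 2 h after fertilization. With 1 library of each kind, nothing here could be set against the spread between replicates, and no test between the libraries was run.

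The V-ATPase is a rotary machine that uses ATP to pump protons across membranes. It acidifies endosomes, lysosomes and secretory vesicles in nearly every cell, and in insects it also drives ion transport across epithelia such as the Malpighian tubule. A cytosolic sector, V1, splits ATP and turns a central stalk, and a membrane sector, V0, carries the protons through a ring of small proteolipids. In Drosophila many subunits have several gene copies, 1 of them (2 for subunit e) used broadly and the rest used in fewer tissues. The broadly used copies among the 32 are called core genes here (15 genes) and the rest other paralogs (17 genes). Subunit A has no core gene in this set. The core list named Vha68-2 for subunit A, but no gene of the table has that symbol. Both members of subunit A, Vha68-1 and Vha68-3, count as other paralogs. The set of other paralogs is mixed, and it holds Vha100-1, which is known for its role in neurons.

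Signal was given per whole gene, introns included, as RPKM (reads divided by gene width and by library size). The ratio below is log2((ChIP RPKM + 1)/(input RPKM + 1)), so 0 means equal scaled signal, and adding 1 RPKM understates the ratio of weakly covered genes. Each 95% interval is exact (Clopper-Pearson) for the split of a gene's reads between the libraries. It covers counting error only, and PCR copies among the reads would make it too narrow. The 32 genes held 5212 ChIP and 3930 input reads, with at least 17 ChIP and 18 input reads each. Their widths ran from 494 to 11825 bp.

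As a family, the proton pump genes had a dBigH1 signal close to that of other genes. Their median ratio was -0.08, with quartiles of -0.23 and 0.06, against -0.04 over all genes (the genome-wide median), with quartiles of -0.23 and 0.14. ChIP signal ran from 2.95 to 9.14 RPKM with a median of 6.15, and input signal ran from 3.63 to 10.004 RPKM with a median of 7.02. The medians of all genes were 6.38 RPKM in the ChIP against 6.51 RPKM in the input. Of the 32 genes, 18 lay below the genome-wide median, as 50% of all genes do by definition, and 20 had a ratio within 0.2 of 0.

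Single members that stood apart from the typical gene were few. Members with a ratio of -0.5 or less, a decrease of about 1.41 times, numbered 2 (6.25%), against 7.31% of all genes. No member (0 of 32) had a ratio of 0.5 or more, against 4.53% of all genes. These counts move with the scaling. With 0 or 0.1 RPKM added in place of 1, 3 members lay at -0.5 or less and 1 of 32, Vha36-3, at 0.5 or more. After centring on the genome-wide median or a lowess fit, 1 member (Vha14-1) lay at -0.5 or less and 1 (Vha36-3) at 0.5 or more. An interval wholly under the genome-wide median was found for 3 members (9.38%), against 9.59% of all genes, and one wholly over it for 0, against 10.6% of all genes. The shares on the low side were near those of all genes. The intervals of the other 29 members included the genome-wide median. With no RPKM added, the pooled reads of the family gave a log2 ratio of -0.08 (interval -0.14 to -0.02). That interval leaves out the spread between members (SD 0.30 in the ratio), and genes with many reads weigh most in it. It does not show that the family differs from other genes. The pooled reads of all genes gave 0.0051.

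**Figure D1:**
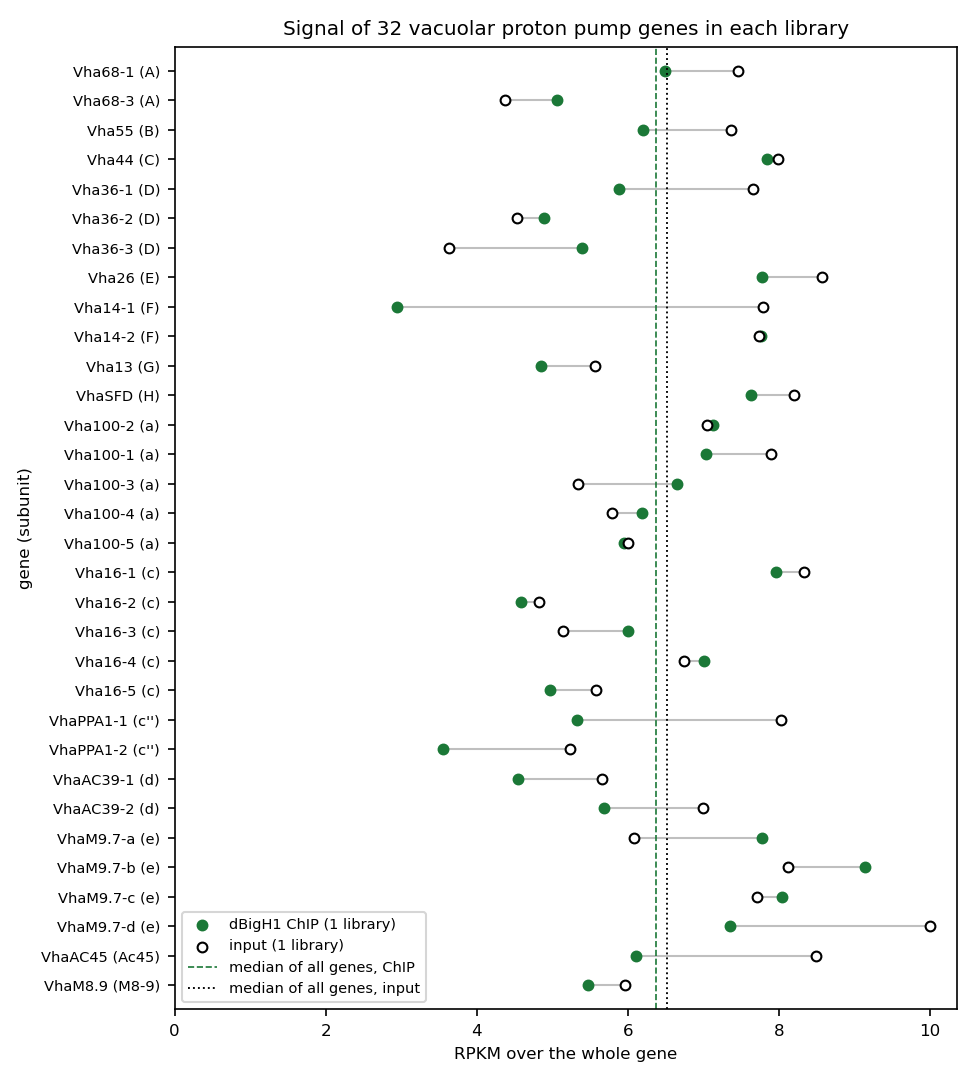
RPKM of each of the 32 proton pump genes in the dBigH1 ChIP library (filled points) and the input library (open points), ordered by subunit, with lines at the medians of all genes (6.38 RPKM in the ChIP against 6.51 in the input). The widest gap on the low side belongs to Vha14-1, at 2.95 RPKM in the ChIP against 7.79 in the input.

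Vha14-1, the core gene of subunit F in the central stalk, had the lowest ratio of the family. It had 2.95 RPKM in the ChIP (17 reads) against 7.79 RPKM in the input (32 reads), a ratio of -1.15 (interval -1.86 to -0.43). Its input signal was above the median input signal of all genes, and its ChIP signal was the lowest of the 32. It ranked as number 124 from the lowest among all genes. Of the 935 genes with 39 to 59 reads in the libraries together, 6 (Vha14-1 included) had a ratio as low, and the median of these genes was -0.04 with quartiles of -0.31 and 0.27. Vha14-1 is described here as the lowest of the 32, and neither these ranks nor its intervals below allow for that choice. In the authors' deposited table the score of Vha14-1 was -2.80, where the score has an SD of 0.9996 over all genes.

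The gene spans 655 bp on 2R, from 11566931 to 11567585 of the dm3 build, on the minus strand, and overlaps no other gene of the table. Its neighbours did not share the low ratio. CG8207, 486 bp downstream, had 6.20 RPKM in the ChIP against 6.76 in the input (ratio -0.11, interval -0.50 to 0.29). CG30091, 479 bp upstream and transcribed away from it, had 6.28 RPKM in the ChIP against 6.65 in the input (ratio -0.07, interval -0.45 to 0.31). From the reads alone, Vha14-1 was below CG8207 by a log2 difference of -1.27 (exact conditional interval -2.33 to -0.26) and below CG30091 by -1.31 (-2.36 to -0.31). Both neighbours are near the genome-wide median.

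The other subunit F gene, Vha14-2, had an even ratio. It had 7.76 RPKM in the ChIP (124 reads) against 7.73 RPKM in the input (88 reads), a ratio of 0.01 (interval -0.35 to 0.37). The 2 subunit F genes were thus alike in input signal and differed in ChIP signal. From the reads alone, Vha14-1 minus Vha14-2 was -1.40 (interval -2.44 to -0.41).

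Among the remaining V1 genes, those of the catalytic head and the stators lay close to the typical gene. Vha55, the only gene of the ATP-binding B subunit, had 6.20 RPKM in the ChIP against 7.37 in the input (ratio -0.22, interval -0.47 to 0.03). Vha68-1, a gene of the catalytic A subunit, had 6.49 RPKM in the ChIP against 7.46 in the input (ratio -0.18). Vha68-3, another A subunit gene, had 5.06 RPKM in the ChIP against 4.37 in the input (ratio 0.17). Their counting intervals included the genome-wide median, and that of the difference of Vha68-1 and Vha68-3 in reads (-0.41, interval -0.96 to 0.14) included 0. A further gene, FBgn0263598, has no symbol in the table and is described there as V-ATPase 69 kDa subunit 2. It is therefore not counted among the 32. Whether FBgn0263598 is Vha68-2, the core gene listed for subunit A, was not settled, since no ID tied them. FBgn0263598 lies just before Vha68-3 on 2L and had 6.11 RPKM in the ChIP against 6.09 in the input (ratio 0.0045, interval -0.25 to 0.26).

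Stator and regulatory subunits of V1 had ratios just under 0. Vha26, the gene of subunit E, had 7.77 RPKM in the ChIP against 8.58 in the input (ratio -0.13). Vha13, the gene of subunit G, had 4.85 RPKM in the ChIP against 5.56 in the input (ratio -0.16). VhaSFD, the gene of subunit H, which takes part in the control of the pump, had 7.63 RPKM in the ChIP against 8.20 in the input (ratio -0.09). These values are lower in the ChIP in each case, by less than counting error. Vha44, the gene of subunit C, is the longest and best covered member, with 7.85 RPKM in the ChIP (817 reads) against 7.98 RPKM in the input (592 reads). Its ratio of -0.02 had the narrowest interval of the family, -0.16 to 0.12.

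Subunit D, the axle of the central stalk, has 3 genes, whose ratios spread the most after those of subunit F. Vha36-1, the core gene, had 5.88 RPKM in the ChIP (56 reads) against 7.66 in the input (52 reads), a ratio of -0.33 (interval -0.83 to 0.17). Vha36-2 had 4.89 RPKM in the ChIP against 4.53 in the input (ratio 0.09). Vha36-3 had the highest ratio of all 32 members, 0.46 (interval -0.13 to 1.06), from 5.39 RPKM in the ChIP (50 reads) against 3.63 in the input (24 reads). All 3 genes had ChIP signal under the 6.38 RPKM that was the median of all genes, and Vha36-3 had the lowest input signal of the family. From the reads alone, Vha36-1 minus Vha36-3 was -0.95, with an interval of -1.91 to -0.0029 that barely excluded 0. Vha36-3 lies on the X, where signal was low in general (median 5.06 RPKM in the input and 4.62 RPKM in the ChIP). The median ratio of genes on the X was -0.14, against -0.04 over all genes. The part of the X in the ratio of Vha36-3 was not tested.

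**Figure D2:**
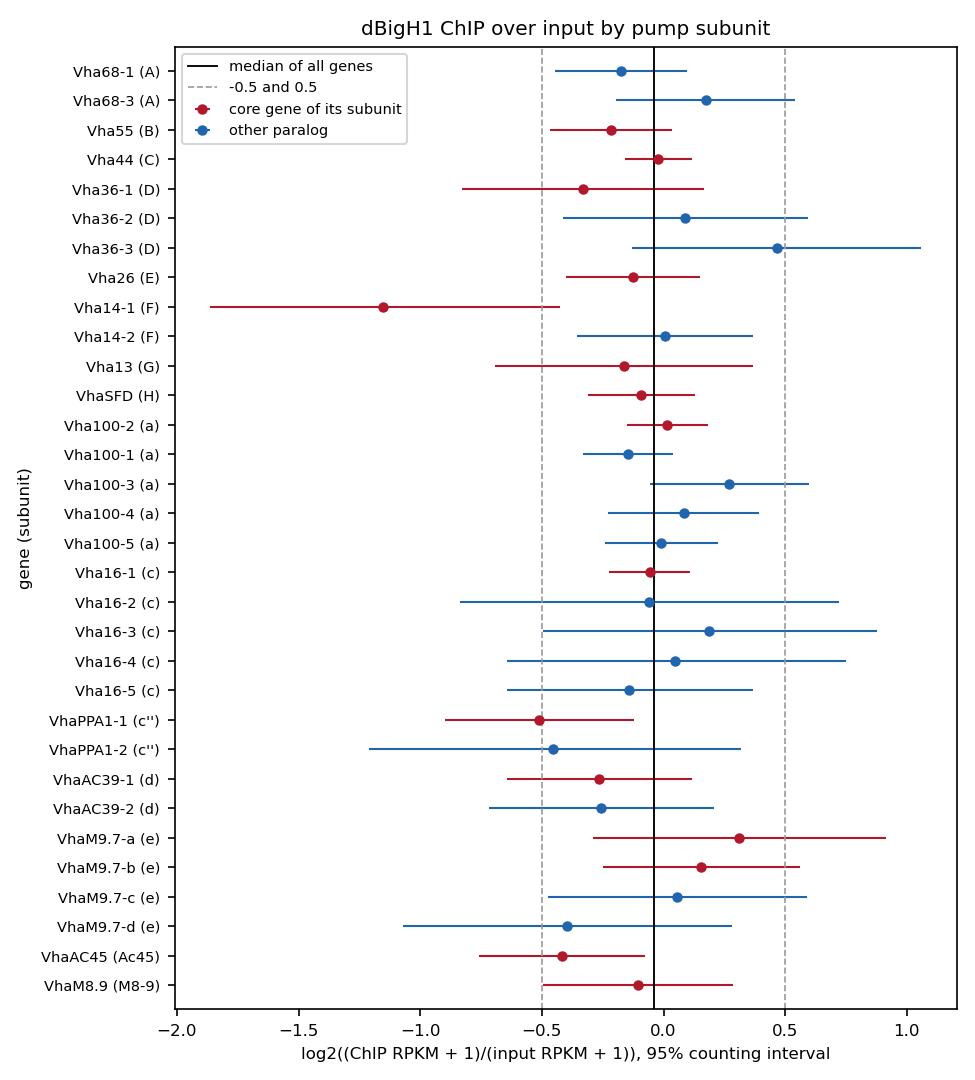
Log2 ratio of dBigH1 ChIP over input for each of the 32 genes by subunit, with 95% counting intervals, for core genes (red) and other paralogs (blue). The solid line is the genome-wide median (-0.04) and the dashed lines are -0.5 and 0.5. Vha14-1, VhaPPA1-1 and VhaAC45 are the 3 genes whose interval lies left of the solid line.

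In the V0 sector, the genes of subunit c'', a proteolipid of the rotor ring, were the lowest. VhaPPA1-1, the core gene, had 5.33 RPKM in the ChIP (82 reads) against 8.02 in the input (88 reads), a ratio of -0.51 (interval -0.90 to -0.12). VhaPPA1-2 had 3.56 RPKM in the ChIP (20 reads) against 5.24 in the input (21 reads), a ratio of -0.45 (interval -1.21 to 0.32). Both were low, but only the interval of VhaPPA1-1 lay below the genome-wide median. Pooled with no RPKM added, the reads of both genes gave -0.58 (interval -0.99 to -0.18). With 0 RPKM added, the single ratios were -0.59 for VhaPPA1-1 and -0.56 for VhaPPA1-2. The 2 genes lie on 3R on the minus strand with the ribosomal protein gene RpS5b between them, 154 bp from VhaPPA1-2 and 737 bp from VhaPPA1-1. RpS5b had 6.09 RPKM in the ChIP (62 reads) against 5.79 in the input (42 reads), a ratio of 0.06 (interval -0.44 to 0.57). The point value of RpS5b was above those of both c'' genes, and the intervals of the differences in reads (-1.42 to 0.09 for VhaPPA1-1 and -1.77 to 0.51 for VhaPPA1-2) included 0.

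The genes of subunit c, which makes up most of the rotor ring, were near the typical gene. Vha16-1, the core gene, had 7.96 RPKM in the ChIP (553 reads) against 8.33 in the input (412 reads), a ratio of -0.06 (interval -0.22 to 0.11). The other paralogs, Vha16-2 to Vha16-5, had ratios from -0.14 (Vha16-5) to 0.19 (Vha16-3). These 4 short genes had few reads, from 24 to 55 in the ChIP and from 18 to 44 in the input, so differences of this size among them were not detectable at this depth. Vha16-3 and Vha16-2 are neighbours on 3L, 985 bp apart, with ratios of 0.19 and -0.06.

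Subunit a, which holds the paths by which protons enter and leave the ring, has 5 long, well covered genes with ratios from -0.15 to 0.27. Vha100-2, the core gene, had 7.13 RPKM in the ChIP (555 reads) against 7.05 in the input (391 reads), a ratio of 0.01 (interval -0.15 to 0.18). The lowest was Vha100-1, the paralog known from synapses, with 7.03 RPKM in the ChIP against 7.89 in the input (ratio -0.15, interval -0.33 to 0.04). The highest was Vha100-3, with 6.65 RPKM in the ChIP against 5.34 in the input (ratio 0.27, interval -0.06 to 0.60). All 5 intervals included the genome-wide median. Vha100-3 lies whole within the span of another gene, sano (ratio 0.10), so the same DNA is part of both spans. Vha100-4 (ratio 0.08) lies 519 bp from Vha100-2 on 3R, and Vha100-5 had a ratio of -0.01.

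Subunit d, which joins the ring to the central stalk, has a pair of genes with nearly equal ratios. VhaAC39-1, the core gene, which lies on the X, had 4.55 RPKM in the ChIP against 5.66 in the input (ratio -0.26, interval -0.64 to 0.12). VhaAC39-2, on 3R, had 5.68 RPKM in the ChIP against 6.99 in the input (ratio -0.26, interval -0.72 to 0.21). The difference of the pair in reads was -0.02, with an interval of -0.73 to 0.69 that is wide enough to hold a sizeable difference either way.

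Subunit e, a small membrane protein, had the core genes with the highest ratios. VhaM9.7-a had 7.77 RPKM in the ChIP (52 reads) against 6.08 in the input (29 reads), a ratio of 0.31 (interval -0.29 to 0.91). VhaM9.7-b had the highest ChIP signal of the family, 9.14 RPKM (109 reads), with 8.12 RPKM in the input (69 reads), a ratio of 0.15 (interval -0.25 to 0.56). VhaM9.7-d, which at 494 bp is the shortest member, had the highest input signal, with 7.36 RPKM in the ChIP (32 reads) against 10.004 in the input (31 reads), a ratio of -0.40 (interval -1.07 to 0.28). VhaM9.7-c, which other genes of the table cover over its whole length, had a ratio of 0.05. The order within subunit e did not exceed counting error in any core and other pair.

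Of the accessory subunit genes, VhaAC45 had the lower ratio, and the intervals of VhaAC45 and VhaM8.9 overlap. VhaAC45, whose mammalian counterpart helps to assemble and sort the pump, had 6.10 RPKM in the ChIP (113 reads) against 8.49 in the input (112 reads), a ratio of -0.42 (interval -0.76 to -0.08). VhaM8.9, the counterpart of the mammalian prorenin receptor, had 5.47 RPKM in the ChIP against 5.96 in the input (ratio -0.11, interval -0.49 to 0.29). VhaAC45 is thus the third member with an interval below the genome-wide median, after Vha14-1 and VhaPPA1-1. All 3 are core genes, which had more reads (median 109 in the ChIP, against 60 in other paralogs). VhaPPA1-2 (-0.45) and VhaM9.7-d (-0.40), both other paralogs, had ratios near that of VhaAC45 but wider intervals. CG31030, which carries the name VhaAC45RP in the current RefSeq annotation but not in the table, had 5.42 RPKM in the ChIP against 6.60 in the input (ratio -0.24, interval -0.65 to 0.16).

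Core genes had a lower median ratio than the other paralogs. Between the sets, median input signal differed more than median ChIP signal. Medians of signal can come from different genes, so they do not split the difference in ratio into parts. The median ratio was -0.13 over the 15 core genes and 0.01 over the 17 other paralogs, a difference of -0.13. Median ChIP signal was 6.20 RPKM in core genes and 5.996 RPKM in other paralogs, whereas median input signal was 7.79 RPKM in core genes and 5.80 RPKM in other paralogs. Input signal was above its median over all genes in 11 of 15 core genes and in 7 of 17 other paralogs. ChIP signal was above its median over all genes in 7 of 15 core genes and in 7 of 17 other paralogs. The 2 sets overlapped widely in ratio, from -1.15 to 0.31 in core genes and from -0.45 to 0.46 in other paralogs. Without Vha14-1 the difference was -0.12, and with FBgn0263598 counted as a core gene it was also -0.12. Among the 18 members with input signal of at least its median over all genes, it was 0.02, with medians of -0.13 in core genes and -0.15 in other paralogs, against -0.12 over all genes that passed. Input signal is the denominator of the ratio, so this filter itself favours low ratios. No test of the difference was possible with 1 library per group.

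**Figure D3:**
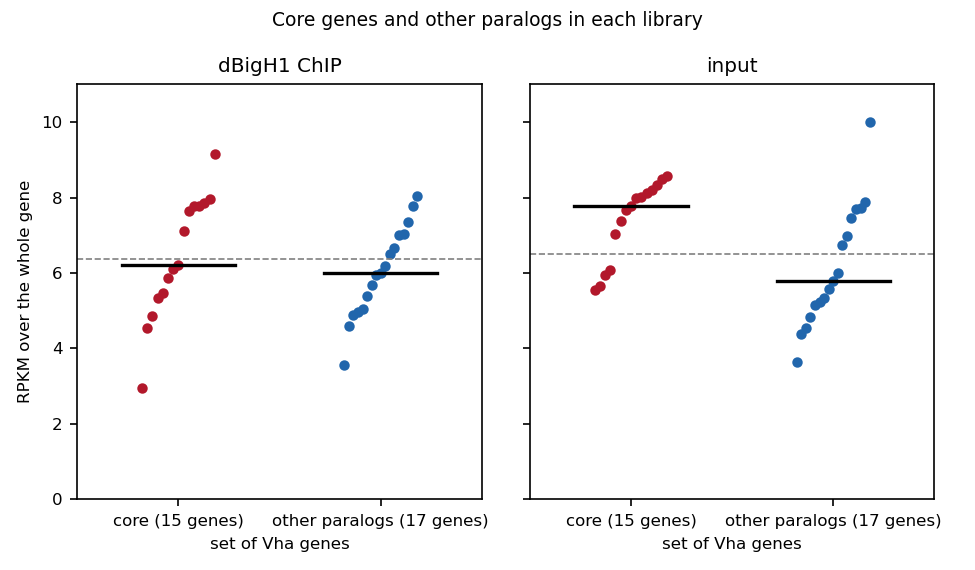
RPKM of the 15 core genes (red) and the 17 other paralogs (blue) in the dBigH1 ChIP library (left) and the input library (right). Points are genes, black bars are set medians (ChIP 6.20 and 5.996, input 7.79 and 5.80) and dashed lines are the medians of all genes. The set medians are close in the ChIP and further apart in the input, where the points of the sets overlap.

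Paired within a subunit, core genes were not regularly the lower ones. Of the 17 pairs of a core gene and another paralog of its subunit, the core gene was lower in 9 and higher in 8. The interval of the difference in reads excluded 0 in 2 pairs, Vha14-1 with Vha14-2 and Vha36-1 with Vha36-3. Pairs share genes, so they are not independent. By sector, the 12 V1 genes had a median of -0.11 and the 20 V0 genes one of -0.06. All 7 core genes of V1 had a ratio under 0, from -1.15 to -0.02. These 7 include none of subunit A. FBgn0263598, described as V-ATPase 69 kDa subunit 2 and not counted here, lay at 0.0045. Counted as core, it would be a V1 core gene not under 0. Ratios of the 5 other V1 paralogs ran from -0.18 to 0.46, with 1 of them under 0. In V0, 5 of 8 core genes and 7 of 12 other paralogs had a ratio under 0, against 8717 of all 15627 genes.

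The spread of the ratios narrowed with read number, as the plot of ratio against reads shows. The 15 members under 1500 bp had an SD of 0.39, and the 17 longer ones had an SD of 0.19. Both medians were near that of all genes, at -0.06 and -0.09. Across the 32 members, Spearman's rho of the ratio with input RPKM was -0.42, and with ChIP RPKM 0.36. Over all 15627 genes the same values were -0.41 and 0.44. Ratio and signal share the same libraries, so a negative rho with input and a positive one with ChIP are built into these measures. With gene width rho was 0.07 across the members and 0.02 across all genes.

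**Figure D4:**
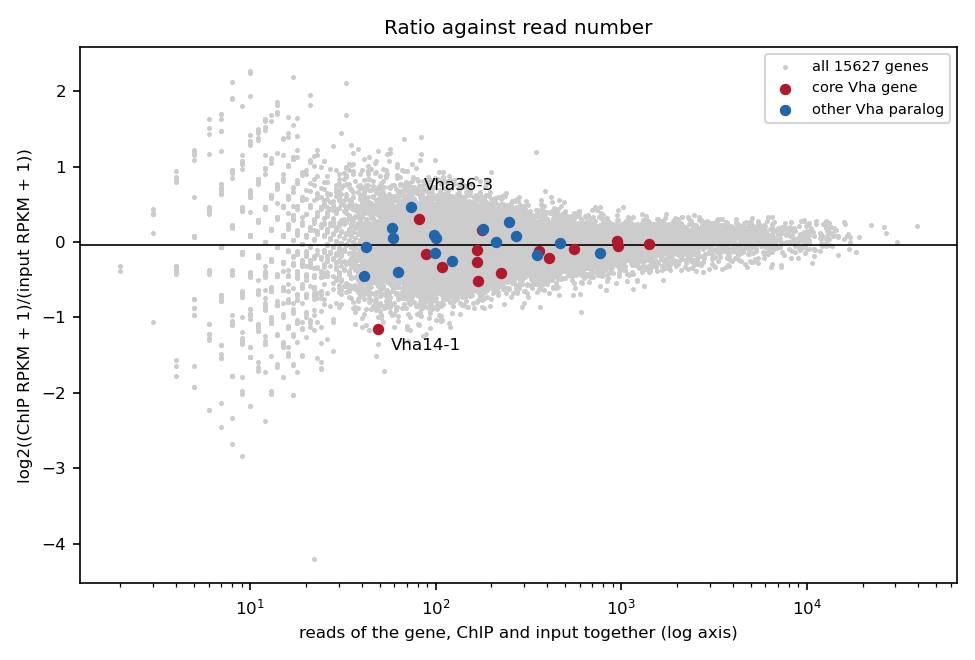
Log2 ratio of dBigH1 ChIP over input against the number of reads of the gene in both libraries together (log axis), for all genes (grey), core proton pump genes (red) and other paralogs (blue). The line is the genome-wide median (-0.04). Vha14-1, at 49 reads and -1.15, sits at the lower edge of genes with as many reads, and Vha36-3 is the highest member at 0.46.

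Compared with the genes beside them, the members lay on either side. A member was lower than both adjacent genes in 12 cases, higher than both in 9 and between them in 11. A neighbour head to head (start to start, on opposite strands) within 500 bp was found for 7 of the 15 core genes and 1 of the 17 other paralogs. The median ratio of these 8 members was -0.18, against -0.04 in the other 24 members. Of the 8, 6 were lower than the genome-wide median. This split was made after the values were seen. Neither the split nor the counts against adjacent genes were made over all genes, so they have no background here.

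The 2 of these 8 members above the genome-wide median were both of subunit e, and each faced a gene of low ratio. VhaM9.7-a faces CG11586 across 234 bp, which had 4.64 RPKM in the ChIP (48 reads) against 8.28 in the input (61 reads), a ratio of -0.72 (interval -1.20 to -0.23). From the reads alone VhaM9.7-a was above CG11586 by 1.18 (interval 0.28 to 2.11). VhaM9.7-b faces FBgn0263911, a gene without a symbol, across 414 bp. FBgn0263911 had 7.14 RPKM in the ChIP (37 reads) against 13.3 in the input (49 reads), a ratio of -0.81 (interval -1.39 to -0.23). VhaM9.7-b was above it by 1.06 (interval 0.26 to 1.87). Both pairs were picked after their values were seen, and the intervals do not allow for that choice. In both places, genes that face each other thus lay on opposite sides of the genome-wide median, and the interval of the subunit e gene itself included it. The reverse arrangement held for Vha36-1, which faces CG8187 across 81 bp. CG8187 had 8.16 RPKM in the ChIP against 6.53 in the input (ratio 0.28), and the interval of their difference, -1.43 to 0.02, included 0. VhaAC45 (-0.42) and CG8027 (0.02) also lay on opposite sides. In the remaining facing pairs within 500 bp, both genes lay below the genome-wide median. Vha14-1 (-1.15) with CG30091 (-0.07) and Vha55 (-0.22) with CG6359 (-0.37) did so. So did Vha26 (-0.13) with noi (-0.31) and Vha100-1 (-0.15) with dgt6 (-0.07).

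Genes that work with the proton pump or resemble it were also mixed. For the mitochondrial ATP synthase, a related rotary enzyme, 7 genes were taken by symbol (ATPsyn, blw or sun). Genes of the enzyme with other symbols were not looked for. These 7 had a median ratio of -0.14, from ATPsyn-d (-0.60) to ATPsyn-Cf6 (0.22), with 2 intervals below the genome-wide median and 0 above. Over all genes, 9.59% of intervals lay below the genome-wide median and 10.6% above. A list of 20 genes, chosen for pump assembly, lysosomes, chloride movement and nutrient sensing, had a median of -0.10, with 4 intervals below (20%) and 3 above (15%). The low ones included Mitf, a transcription factor known to control proton pump genes in Drosophila, which had 535 ChIP and 510 input reads (ratio -0.37, interval -0.53 to -0.22). They also included Rbcn-3B, a gene of the complex that helps V1 and V0 to assemble (ratio -0.27, interval -0.48 to -0.06), and car, a gene of vesicle fusion at the lysosome (ratio -0.45). The high ones included ClC-a (ratio 0.18) and lt, a gene of lysosomal delivery (ratio 0.28, interval 0.17 to 0.38). The highest value was that of Vps33B (0.33). The 20 genes had a median of 241 ChIP reads, against 98 over all genes, and more reads make intervals narrower.

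The median ratio of the whole family (-0.08) was higher than those of ribosomal protein and proteasome genes. The median was -0.28 over the 93 genes of cytoplasmic ribosomal proteins, from RpS24 (-1.25) to RpL37b (0.48), and 24 of them (25.8%) had a ratio of -0.5 or less. Over the 30 proteasome genes it was -0.21, from Prosbeta3 (-0.95) to Rpn12 (0.81), and 4 of them (13.3%) had such a ratio. Over all genes that share was 7.31%. The 15 core Vha genes had a median of -0.13, and 2 of them (13.3%) had such a ratio. Intervals below the genome-wide median made up 20% of core Vha genes, 20.4% of ribosomal protein genes and 23.3% of proteasome genes. That share was 9.38% over the 32 Vha genes and 9.59% over all genes. Median gene width was 1149 bp for ribosomal protein, 1388 bp for proteasome and 1781.5 bp for Vha genes. The differences between these families could not be tested with 1 library per group.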

How the data were processed

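The members, gene lists and comparisons were chosen with earlier results of these data known. Per the file headers, the authors deposited a log2 RPKM value per gene and library and a MAnorm score. Per the labels, libraries were made from 3.5 ng of DNA of 300 to 350 bp with 18 cycles of PCR and read as 50 nt single reads. Tools named in the submitters' processing notes, without roles, are CASAVA 1.9, Bowtie2, FastQC 0.10 and R 2.15, with the build dm3. How reads were counted and duplicates treated is not stated there. Of all genes 42.0% overlap another gene, 8 members among them.

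From the values, the deposited log2 columns are log2(RPKM + 1): 100% gave whole reads within 1e-05 reads, scaled to 8803832 (ChIP) and 6272887 (input) reads. The ratio adds 1 RPKM to both. Differences in reads between genes are conditional odds ratios with exact 95% intervals and no added RPKM. The deposited score had an SD of 0.9996, against 0.36 for the log2 ratio, so it was kept as an alternative only. Core genes were 1 gene per subunit from general knowledge, and 2 for subunit e. For subunit A the list named Vha68-2, a symbol that no gene of the table carries, so subunit A has 0. Named are all 32 members and the ends of each list. Further genes of the lysosome list and the adjacent genes given in full were picked after their values were seen. RefSeq (Release 6) served for names only, and 31 members carry the same symbol there.

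Other settings tried were adding 0, 0.1 or 5 RPKM, centring on the genome-wide median, a lowess fit (span 0.3), the score, filters on input RPKM (0.5 times its median or its median), 20 input reads, 500 bp, overlap and the X, a fold of 1 on the log2 scale, and members by current symbol. Leaving out Vha14-1 and adding FBgn0263598 were chosen after the data were seen. The steps were tested on simulated data. The software was Python 3.11.15 (matplotlib 3.10.9, statsmodels 0.14.6, scipy 1.17.1, pandas 2.3.3, numpy 2.4.6).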

Additional observations from a re-analysis of the deposited data

How the results depend on the processing

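Apart from counts and the deposited score, the family median ran from -0.14 to -0.03, that of V1 from -0.15 to -0.06 and that of core genes from -0.19 to -0.08. The median of V0 ran from -0.10 to 0.0032. The pooled ratio ran from -0.13 (without overlapping genes) to -0.04. Pooled reads have no value under a pseudocount, the lowess fit or the score, and the score has no intervals. Keeping the 18 members whose input RPKM reached its median over all genes, core genes minus other paralogs was 0.020 and 1 interval lay under the median of the genes that passed (-0.12). The count at -0.5 or less was 3 with 0 or 0.1 RPKM added and 1 with 5 RPKM added, after centring, after lowess, at a fold of 1 or without Vha14-1, and the count at 0.5 or more was 1 with 0 or 0.1 RPKM added, after centring or after lowess. On the score, whose units differ, these counts were 10 and 6, the median of other paralogs was 0.17 and the difference of core and other paralogs -0.39. Vha14-1 ran from -1.40 (0 RPKM added) to -0.69 (5 RPKM added) and VhaPPA1-1 from -0.59 to -0.33. No paired analysis was possible because each group had 1 library.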
